A study of Mus musculus with 18 samples.

Results

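Myotubes exposed to 10 µM ginsenoside Rc on its own were compared with vehicle control myotubes, to ask what this dose of the compound does to muscle cells that are under no further treatment. The libraries were taken by their titles: 3 of the 18 libraries in the series carry 10 µM ginsenoside Rc without dexamethasone, and 3 are controls. The cells were C2C12 myotubes, the fused, contractile cells that a mouse myoblast line forms, here after 5 days in differentiation medium with horse serum. The treated cultures received 10 µM ginsenoside Rc for 36 h, and control cultures received the vehicle, 0.1% DMSO, for 36 h; whether the treated medium held the same share of DMSO is not stated per group. The 12 other libraries, 3 per group, served the comparisons across doses and with dexamethasone. They were 20 µM ginsenoside Rc for 36 h, 200 µM dexamethasone for 24 h after 12 h of pre-treatment with 10 µM or with 20 µM ginsenoside Rc, and 200 µM dexamethasone for 24 h after 12 h in 0.1% DMSO. C2C12 is 1 line and the titles name the same batch for all 18 libraries. The labels do not state whether replicates are separate cultures, so every p-value measures a spread among libraries that could be purely technical.

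Ginsenoside Rc is a dammarane-type triterpene saponin of ginseng that carries sugars on its steroid-like core. Dexamethasone is a synthetic glucocorticoid that drives muscle wasting programmes, among them the ubiquitin ligases Fbxo32 and Trim63. Skeletal muscle builds its thick filaments from myosin heavy chains encoded by a gene cluster in which development uses Myh3 (embryonic) and Myh8 (perinatal) first and the adult fast forms Myh2, Myh1 and Myh4 later, while the slow form Myh7 lies elsewhere. Cultured myotubes express several of these genes together, so their balance is a common readout of how mature the cells are.

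The libraries carried 32350889 to 41743468 expected counts with 10 µM ginsenoside Rc and 36523062 to 44021619 in the control. Levels are given as CPM, each count as a share of its library's TMM-scaled total, and differences as log2 changes from edgeR's quasi-likelihood test with Benjamini-Hochberg adjustment over the 15436 genes tested. The 11 myotube markers summed to between 21090 and 21740 CPM with 10 µM ginsenoside Rc and to between 20740 and 20960 CPM in the control, and none of them was at 0. In bulk RNA, fewer cells of a type and less RNA per cell cannot be told apart. The endothelial markers summed to 1.996 to 2.522 CPM with 10 µM ginsenoside Rc and 1.899 to 2.4 CPM in the control, with Emcn at 0. The leukocyte markers summed to 1.714 to 2.268 CPM and 1.733 to 2.076 CPM. The 8 adipocyte markers summed to 16.88 to 18.64 CPM and 16.25 to 17.97 CPM. Of these, Plin1, Lep, Cidec and Cfd were at 0 in these libraries, Adipoq and Fabp4 stayed under 1 CPM, and only Cebpa and Pparg reached 1 CPM. The replicate 2 library of the 20 µM group, which is in neither group but shares in the estimate of the spread, stood apart from the other 17 on the second principal component and had 2.792% mitochondrially encoded counts, against 1.255 to 1.906% in the others.

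A single gene passed the test between 10 µM ginsenoside Rc and the control: Myh8, the perinatal myosin heavy chain, rose 1.32-fold. That is 1 of 15436 genes, or 0.00648%. Myh8 is 1 member of a gene cluster on chromosome 11. The 250 bases before the RefSeq transcription start (GRCm38.p6, plus strand) are therefore shown for Myh8 and its adult neighbours Myh4 and Myh1. Exact runs of 14 to 22 bases shared with Myh8 are in capitals, and shorter shared stretches are not marked. In Myh8 the first capitals join the run shared with Myh4 and the overlapping run shared with Myh1.
Myh8, chr11:67276874-67277123: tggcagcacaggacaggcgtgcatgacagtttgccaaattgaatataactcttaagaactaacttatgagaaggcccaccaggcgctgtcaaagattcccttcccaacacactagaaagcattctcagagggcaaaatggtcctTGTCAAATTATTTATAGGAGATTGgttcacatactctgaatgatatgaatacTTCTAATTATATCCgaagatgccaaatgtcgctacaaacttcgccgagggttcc
Myh4, chr11:67237562-67237811: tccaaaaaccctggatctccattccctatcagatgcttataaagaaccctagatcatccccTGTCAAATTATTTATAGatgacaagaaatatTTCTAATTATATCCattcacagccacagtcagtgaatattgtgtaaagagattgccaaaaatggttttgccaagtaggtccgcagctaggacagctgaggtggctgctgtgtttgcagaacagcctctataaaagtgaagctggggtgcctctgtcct
Myh1, chr11:67199852-67200101: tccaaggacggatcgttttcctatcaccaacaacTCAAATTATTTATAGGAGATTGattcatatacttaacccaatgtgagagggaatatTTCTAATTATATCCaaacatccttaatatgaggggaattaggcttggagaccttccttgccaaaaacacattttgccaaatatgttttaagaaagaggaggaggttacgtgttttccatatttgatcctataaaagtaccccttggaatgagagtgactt

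The promoters of these neighbours share stretches that are rare elsewhere. Myh8 and Myh4 had the 17 bases TGTCAAATTATTTATAG in common, which occurred in 2 of 32851 mouse promoters of this length (0.00609%). Myh8 and Myh1 had the 22 bases TCAAATTATTTATAGGAGATTG in common, which overlap the 17-base run in Myh8 and also occurred in 2 promoters. The 14 bases TTCTAATTATATCC stood in 4 promoters (0.0122%), those of Myh8, Myh4, Myh1 and Myh2. The letters CANNTG, the core of the E-box that MyoD family factors bind, were searched on both strands and stood 1 time in the Myh8 promoter, 2 times in that of Myh4 and 0 times in that of Myh1, outside the capitals, and 66.2% of all promoters hold them. The letters TATAAA stood 1 time in the Myh8 promoter, on the minus strand within the first run of capitals, and 12.4% of all promoters hold them on either strand. Myh4 had 3 and Myh1 had 2 such matches, 1 of each within a run of capitals. These matches describe the sequence only.

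Myh8 (chr11:67277124-67308634, plus strand, GRCm38) measured 692.6, 683.2 and 681.4 CPM with 10 µM ginsenoside Rc, against 510.9, 524.7 and 526.1 CPM in the control. The groups were far apart relative to their spread, with means of 685.7 ± 6.0 CPM and 520.6 ± 8.4 CPM (SD, n = 3 each). The log2 change was 0.40 ± 0.05 (SE), with an adjusted p of 0.011. Of the distinct 100-base stretches of Myh8 transcripts, 96.6% occur in no other gene, the rest being shared with Myh2, Myh1 and Myh13. Leaving out any of the 6 libraries in turn kept the log2 change between 0.38 and 0.41 but raised the adjusted p to between 0.088 and 0.18, so that no gene passed. Without replicate 2 of the 20 µM group 3 genes passed: Myh8, Scara5 and Col23a1.

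**Figure D1:**
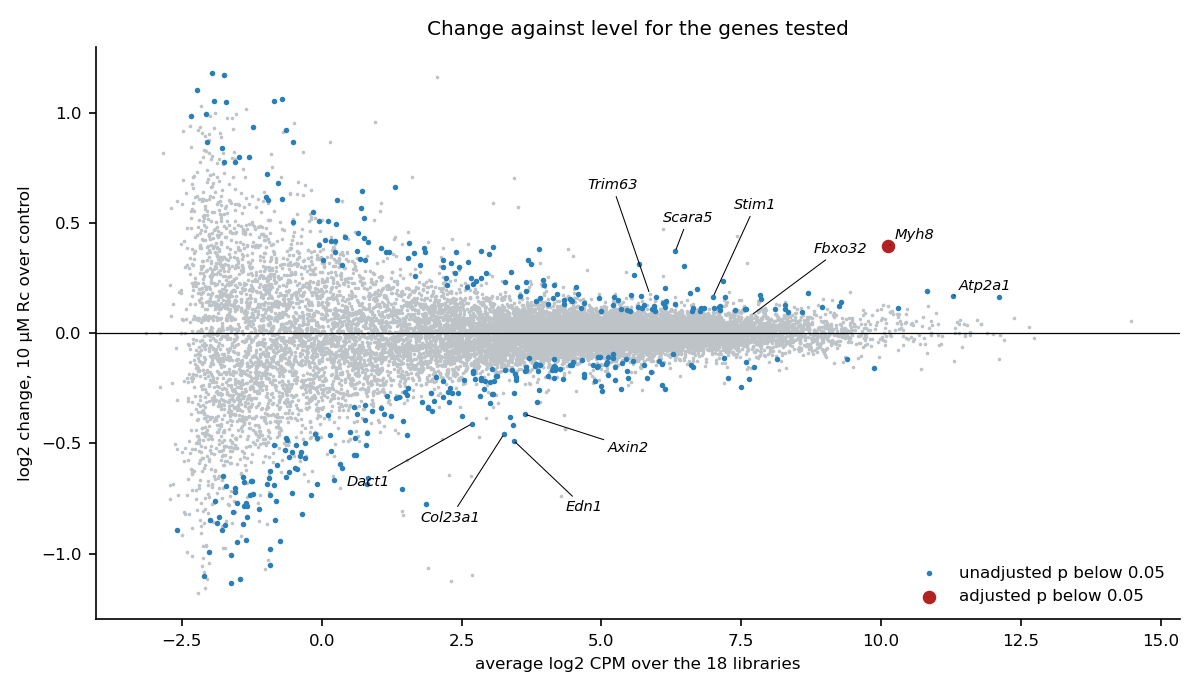
Log2 change with 10 µM ginsenoside Rc over the control (vertical axis) against the average log2 CPM over the 18 libraries (horizontal axis) for each gene tested; 65 genes beyond 1.2 in either direction are not drawn. Blue points are the genes with an unadjusted p below 0.05 and the red point is Myh8, the 1 gene that passed after adjustment, at a log2 change of 0.40.

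Across all genes the treated and control libraries were close. An unadjusted p below 0.05 was reached by 392 genes (2.54%), 172 of them higher (1.11%) and 220 lower (1.43%) with 10 µM ginsenoside Rc. The median log2 change over all genes was -0.00, and 49.4% of genes were above 0. On a principal component analysis of the 6 libraries the first component, with 24% of the variance, did not separate the groups. The 95% interval of the log2 change lay within 1.5-fold in either direction for 79.5% of the genes and within 2-fold for 90.9%. Of the 5875 genes whose log2 CPM averaged 5 or more, 99.5% had intervals within 1.5-fold.

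The other myosin heavy chains did not pass, and their values are given for comparison. Myh4, the fast IIB form, measured 1235, 1124 and 1057 CPM with 10 µM ginsenoside Rc, against 1026, 992.4 and 968.2 CPM in the control, a log2 change of 0.19 ± 0.07. Myh1, the fast IIX form, measured 4551, 4241 and 4033 CPM, against 3875, 3806 and 3775 CPM in the control (0.16 ± 0.07). Myh7, the slow form, measured 485.7, 444.6 and 422.4 CPM, against 393.6, 410.8 and 388 CPM in the control (0.18 ± 0.08). In these 3 genes every treated library was above every control library, and replicate 1 of the treated group was the highest. The same treated library was also the highest of the 6 for the long transcripts of Fn1 (6890, 4533 and 5755 CPM, against 6594, 6099 and 5943 CPM in the control) and Ryr1 (1109, 833.6 and 948.3 CPM, against 968.5, 893.9 and 840.8 CPM), and its part in the Myh1, Myh4 and Myh7 values was not tested. Myh3, the embryonic form, overlapped between the groups, at 4976, 4735 and 4708 CPM with 10 µM ginsenoside Rc and 4598, 4680 and 4719 CPM in the control (0.04 ± 0.08). Myh2 (0.15 ± 0.10), Myh6 (0.11 ± 0.13) and Myh7b (-0.04 ± 0.09) overlapped as well.

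Of the 8 myosin heavy chain genes, 1 passed, 7 had a log2 change above 0 and 4 were higher without overlap, where 5.67% of all genes were higher and 6.39% lower without overlap. Their summed level was 12202, 11452 and 11172 CPM with 10 µM ginsenoside Rc, against 10656, 10637 and 10600 CPM in the control. Per kilobase of transcript, the scale on which genes can be compared, the order was Myh3, Myh1, Myh4, Myh8, Myh7, Myh2, Myh6 and Myh7b in both groups. Myh8 made up 5.83 ± 0.21% of the summed level per kilobase with 10 µM ginsenoside Rc and 4.83 ± 0.09% in the control (SD, n = 3 each), a difference of 1 percentage point (two-sided exact permutation test p = 0.1, the smallest that 3 against 3 libraries allow). The share of Myh3 was 41.65 ± 0.69% with 10 µM ginsenoside Rc and 44.12 ± 0.69% in the control (SD, n = 3 each, exact p = 0.1). Neither share passed 0.05, which this design cannot reach. The shares of Myh1 (36.71% and 35.81%) and Myh4 (9.88% and 9.44%) gave an exact permutation p of 0.2 each.

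**Figure D2:**
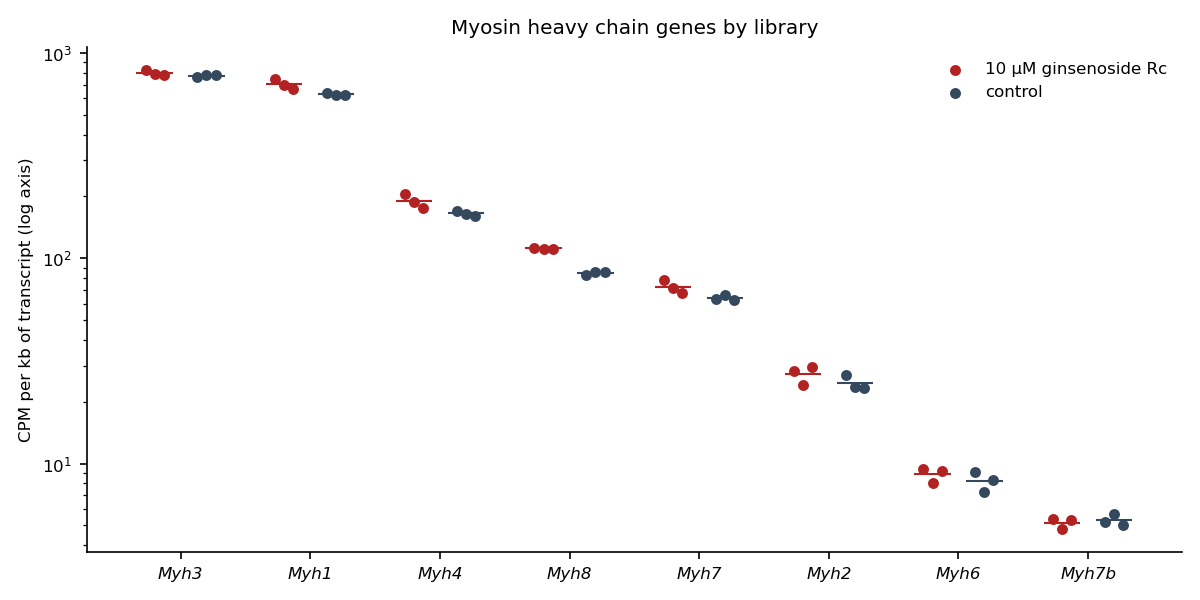
Levels of the 8 myosin heavy chain genes per library, as CPM per kilobase of transcript on a log axis, with 10 µM ginsenoside Rc (red, left of each pair) and in the control (blue-grey, right); points are libraries and lines are group means. Myh8, Myh4, Myh1 and Myh7 do not overlap between the groups, whereas Myh3, Myh2, Myh6 and Myh7b do, and Myh8 alone passed the test.

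The other parts of the contractile apparatus are given by list. Of 53 sarcomere genes other than the myosin heavy chains, 0 passed, 46 had a log2 change above 0, the median was 0.07 against -0.00 over all genes, and 16 were higher (30.2%, against 5.67% of all genes) and 0 lower (against 6.39%) without overlap. Mybpc2, the fast myosin-binding protein C, measured 100.8, 101.8 and 90.2 CPM with 10 µM ginsenoside Rc, against 84.04, 84.76 and 85.93 CPM in the control (log2 change 0.20 ± 0.07). Tnni2, the fast troponin I, measured 591.4, 566.2 and 570.2 CPM, against 528.4, 532.5 and 502.6 CPM in the control (0.14 ± 0.05). Myl2, a regulatory light chain of slow and cardiac muscle, measured 45.22, 45.53 and 45.25 CPM, against 38.69, 38.46 and 36.21 CPM in the control (0.26 ± 0.11), and it was called at an adjusted p of 0.027 when only the 2 groups entered the model. In each of the 3 the groups were separate. The abundant skeletal actin Acta1 overlapped, at 5834, 6372 and 6105 CPM with 10 µM ginsenoside Rc and 5997, 6216 and 5759 CPM in the control (0.03 ± 0.06). The summed level of the list was 47838, 48086 and 47677 CPM, against 47312, 46685 and 45794 CPM in the control.

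Genes of excitation-contraction coupling, the release and re-uptake of calcium that links the nerve signal to contraction, were counted in the same way. Of 29 tested, 0 passed, 26 were above 0, the median log2 change was 0.07, and 8 were higher (27.6%, against 5.67% of all genes) and 0 lower (against 6.39%) without overlap. Atp2a1, the fast-muscle SERCA1 pump that returns calcium to the sarcoplasmic reticulum, measured 1768, 1845 and 1786 CPM with 10 µM ginsenoside Rc, against 1603, 1626 and 1573 CPM in the control. Its log2 change was 0.17 ± 0.05, with an unadjusted p of 0.0023 and an adjusted p of 1. Stim1, the calcium sensor that opens store-operated channels, measured 103.6, 102.8 and 105 CPM, against 93.29, 91.61 and 92.65 CPM in the control (0.17 ± 0.04, unadjusted p = 0.00082). Cacna1s, the voltage sensor of the transverse tubule, measured 582.6, 586.9 and 573.4 CPM, against 542, 526.6 and 529.6 CPM in the control (0.12 ± 0.05). Pvalb, a soluble calcium buffer of fast fibres, measured 9.557, 9.38 and 9.401 CPM, against 7.279, 7.595 and 6.973 CPM in the control (0.37 ± 0.17). All 4 were separate between the groups, and none passed after adjustment in the main test; DESeq2 called Atp2a1 at an adjusted p of 0.031.

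None of the regulators that set the muscle programme passed. Of 29 tested, 15 were above 0 and the median log2 change was 0.00, with 4 higher (13.8%, against 5.67% of all genes) and 0 lower (against 6.39%) without overlap. Myog, the factor that starts terminal differentiation, measured 654.1, 748.2 and 696.2 CPM with 10 µM ginsenoside Rc and 658.8, 727.1 and 688.2 CPM in the control (0.02 ± 0.09). Myod1, the determination factor, measured 181.3, 190.7 and 200.5 CPM, and 193.6, 194.9 and 199.9 CPM in the control (-0.04 ± 0.06). Mymk, which drives myoblast fusion, was at -0.01 ± 0.09. Their 95% intervals ran from -0.17 to 0.20 for Myog, -0.17 to 0.09 for Myod1 and -0.20 to 0.17 for Mymk. Tead4, a factor that binds muscle promoters with YAP and TAZ, was separate between the groups at 99.29, 105.9 and 101.4 CPM, against 95.8, 94.48 and 92.96 CPM in the control (0.11 ± 0.05). The 14 genes of the acetylcholine receptor and neuromuscular junction had a median of 0.03, with 0 passing.

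**Figure D3:**
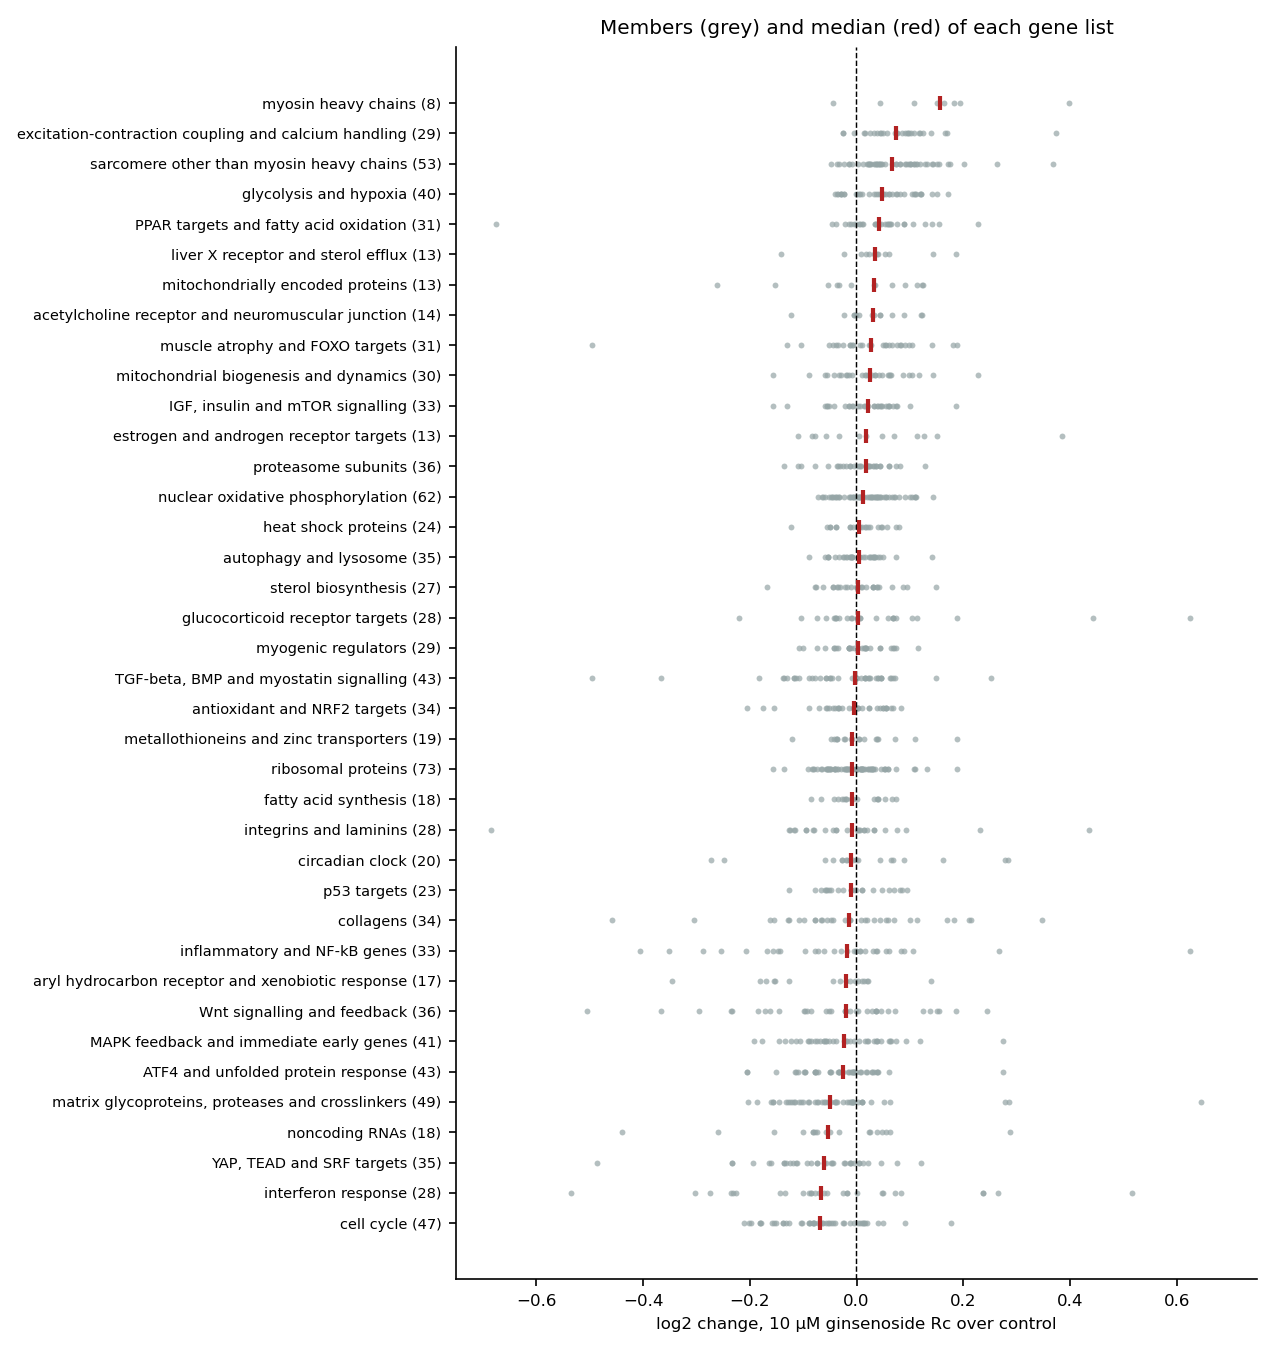
Log2 change with 10 µM ginsenoside Rc over the control for the members of the 38 gene lists (grey points, number tested in brackets) and their medians (red marks); the dashed line is the median of all genes, and 3 members beyond 0.7 in either direction are not drawn. The list medians lie between -0.07 (cell cycle) and 0.16 (myosin heavy chains), and 1 member of any list, Myh8, passed the test.

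Beyond Myh8, 11 other higher genes were named by the smallest unadjusted p. For this rule only genes with no overlap between the groups and a log2 CPM averaging 1 or more over all libraries counted. The 11 genes had adjusted p-values of 0.76 to 1. Scara5, a scavenger receptor that binds ferritin, measured 11.98, 10.14 and 10.41 CPM with 10 µM ginsenoside Rc, against 8.745, 8.17 and 8.165 CPM in the control, a log2 change of 0.37 ± 0.08, and DESeq2 called it at an adjusted p of 0.048. Gpd1, the cytosolic glycerol-3-phosphate dehydrogenase, measured 10.07, 11.51 and 10.64 CPM, against 9.038, 8.236 and 8.368 CPM in the control (0.33 ± 0.08). Sms, the spermine synthase of polyamine metabolism, measured 118.6, 120.5 and 117.4 CPM, against 108.6, 108.1 and 101.4 CPM in the control (0.16 ± 0.04). In each of these the lowest treated library was above the highest control library, as the rule required. Also among them were Stim1 and Atp2a1 (above), the tetraspanin Tspan5 (0.17 ± 0.05), Fam78a (0.22 ± 0.06), 1110012L19Rik (0.24 ± 0.06), Gsta1 (0.66 ± 0.18) and Gm42715 (0.36 ± 0.09). Gsta1 stayed under 1 CPM, at 0.9678, 0.8327 and 0.9354 CPM, against 0.6132, 0.5299 and 0.5832 CPM in the control. Its average log2 CPM of 1.3 met the rule only through the dexamethasone groups, with a mean of 4.087 CPM under dexamethasone alone. Gsta1, a glutathione transferase, and Gm42715 share 80.6% and 84% of their distinct 100-base stretches with other genes, so that their counts rest on how RSEM divided reads, and 16.4% of those of Sms are shared with pseudogene copies.

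None of the lower genes passed the main test. Col23a1, a transmembrane collagen, came nearest, at 13.37, 13.42 and 13.47 CPM with 10 µM ginsenoside Rc, against 18.64, 18.3 and 18.38 CPM in the control. The 3 libraries of each group lay close together, and the groups were far apart relative to that spread. Its log2 change was -0.46 ± 0.08, with an unadjusted p of 1.4e-05 and an adjusted p of 0.11. Col23a1 did pass with DESeq2 (adjusted p = 0.00058), with limma voom and quality weights (adjusted p = 2.8e-05), with no filter on low counts (adjusted p = 0.043), and when only the 2 groups entered the model (adjusted p = 0.0011), each time with a log2 change of -0.46. It shares none of its distinct 100-base stretches with another gene. The collagen list had a median of -0.01, with 2 of 34 lower (5.88%) and 1 higher (2.94%) without overlap, no more than the 6.39% and 5.67% of all genes.

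**Figure D4:**
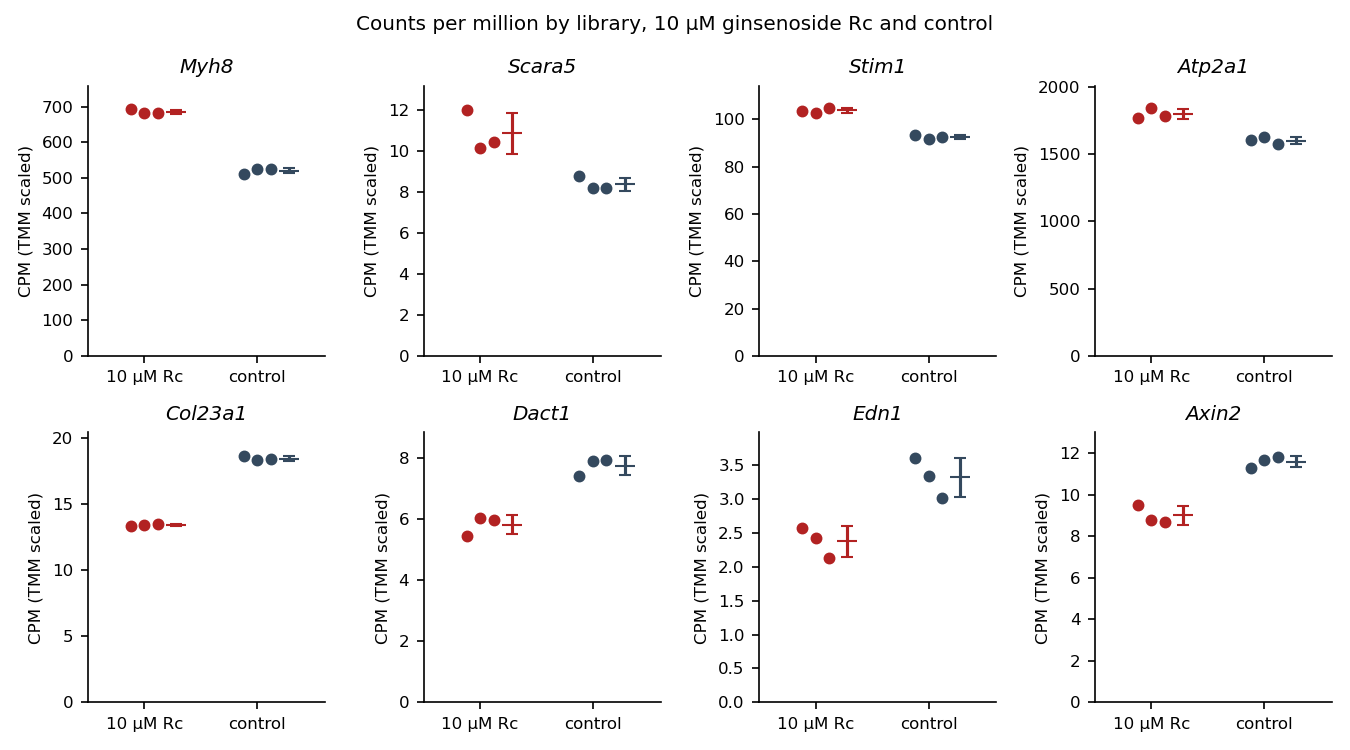
Level in CPM of 4 of the named higher genes (upper row) and 4 of the lower genes (lower row) in each library with 10 µM ginsenoside Rc (red, left) and in the control (blue-grey, right); bars are the mean and SD of 3 libraries, and every axis starts at 0. Each of the 8 genes is separate between the groups, Myh8 alone passed the main test, and the means of Col23a1 are 13.4 CPM and 18.4 CPM.

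Axin2 and Dact1, which act in Wnt signalling, were among the 12 lower genes. Axin2, the scaffold that beta-catenin induces as its own feedback inhibitor, measured 9.527, 8.792 and 8.7 CPM with 10 µM ginsenoside Rc, against 11.3, 11.68 and 11.82 CPM in the control. Its log2 change was -0.37 ± 0.09 (unadjusted p = 0.0011, adjusted p = 1), and limma voom called it at an adjusted p of 0.047. Dact1, an antagonist that binds Dishevelled, measured 5.444, 6.025 and 5.963 CPM, against 7.385, 7.883 and 7.936 CPM in the control (-0.41 ± 0.09). Lgr5, a receptor for R-spondins, measured 3.539, 2.596 and 2.175 CPM, against 4.426, 3.952 and 3.322 CPM in the control, and 1 treated library overlapped (-0.50 ± 0.21). Sfrp2, a secreted Wnt inhibitor, measured 73.19, 66.86 and 62.72 CPM, against 81.77, 78.6 and 77.89 CPM in the control (-0.23 ± 0.14). Dact1 is not a member of the Wnt list. The list was mixed: of 36 genes tested 0 passed, 15 were above 0, the median was -0.02, and 3 were higher (8.33%, against 5.67% of all genes) and 6 lower (16.7%, against 6.39%) without overlap. Among the higher members, the R-spondin receptor Lgr4 measured 28.19, 27.67 and 28.83 CPM with 10 µM ginsenoside Rc, against 26.32, 25.81 and 24.87 CPM in the control (0.14 ± 0.06), and the ligand Wnt9a measured 45.85, 44.72 and 45.51 CPM, against 41.83, 41.05 and 39.71 CPM in the control (0.15 ± 0.07).

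Targets of YAP, TEAD and SRF, factors that read cell tension and the state of the actin skeleton, were the list of the 38 with the highest share of members lower without overlap. Of 35 tested, 0 passed, 28 were below 0, the median log2 change was -0.06, and 13 were lower (37.1%, against 6.39% of all genes) and 1 higher (2.86%, against 5.67%) without overlap. Edn1, the precursor of endothelin-1, measured 2.571, 2.425 and 2.128 CPM with 10 µM ginsenoside Rc, against 3.599, 3.334 and 3.017 CPM in the control (-0.49 ± 0.12, unadjusted p = 0.00090). Myl9, a smooth-muscle type light chain, measured 79.81, 74.57 and 75.72 CPM, against 89.18, 94.28 and 86.9 CPM in the control (-0.23 ± 0.08), and it was called at an adjusted p of 0.048 when only the 2 groups entered the model. The smooth-muscle actins Acta2 (1787, 1933 and 1979 CPM, against 2136, 2127 and 2122 CPM in the control) and Actg2 (44.34, 44.33 and 40.43 CPM, against 51.22, 48.93 and 47.49 CPM) were at -0.16 ± 0.09 and -0.19 ± 0.10. Ccn1, a matricellular target of YAP, measured 222.1, 213.9 and 209.1 CPM, against 240, 239.3 and 241.8 CPM in the control (-0.16 ± 0.09). Not all members shared this: Ankrd1, a target that sits in the sarcomere, was at 0.01 ± 0.12, Egr1 at -0.01 ± 0.13 and Fos at 0.05 ± 0.09. The summed level of the list was 8239.4, 8143.5 and 8238.2 CPM with 10 µM ginsenoside Rc, against 8690.9, 8654.6 and 8680.3 CPM in the control. The fibroblast markers, some of which are matrix and cytoskeletal genes too, overlapped, at 5481 to 5974 CPM with 10 µM ginsenoside Rc and 5387 to 5873 CPM in the control, with Tcf21 at 0 and Thy1 below 1 CPM.

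Matrix and cell cycle genes follow. Of 49 matrix glycoproteins, proteases and crosslinkers, 0 passed, 39 were below 0, the median was -0.05, and 12 were lower (24.5%, against 6.39% of all genes) and 3 higher (6.12%, against 5.67%) without overlap. Thbs2, a matrix glycoprotein, measured 152.9, 147.7 and 161.4 CPM with 10 µM ginsenoside Rc, against 173.4, 182.7 and 176.1 CPM in the control (-0.20 ± 0.08). Fbln7, a fibulin, lay to the other side at 9.95, 9.184 and 10.38 CPM, against 8.185, 7.883 and 8.291 CPM in the control (0.28 ± 0.11). Lamc3, a laminin chain, had the third smallest p of all genes, at 0.9376, 0.8327 and 1.052 CPM, against 1.52, 1.457 and 1.572 CPM in the control (-0.68 ± 0.13, adjusted p = 0.34). Its average log2 CPM of 0.81 kept it out of the 12 lower genes, which needed 1 or more. Among 47 cell cycle genes 0 passed, 36 were below 0, the median was -0.07 and 11 were lower (23.4%, against 6.39% of all genes) and 2 higher (4.26%, against 5.67%) without overlap. Mki67, a marker of cells in cycle, measured 48.63, 40.38 and 48.95 CPM, against 55.16, 50.23 and 50.76 CPM in the control (-0.18 ± 0.23). The inhibitor Cdkn1c, the highest member of the list, measured 11.25, 12.25 and 13.03 CPM, against 10.88, 10.53 and 10.98 CPM in the control (0.18 ± 0.09). The more abundant inhibitor Cdkn1a overlapped, at 2049, 2217 and 2196 CPM, against 2258, 2171 and 2269 CPM in the control (-0.05 ± 0.08). The 10 markers of undifferentiated myoblasts summed to 613.1 to 629.2 CPM with 10 µM ginsenoside Rc and 609.8 to 617.2 CPM in the control, with none at 0. The part of undifferentiated cells in these values was not tested.

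The remaining lower genes by the same rule had log2 changes between -0.42 and -0.19 and adjusted p-values of 0.78 to 1. Tnfsf9, a ligand of the TNF family that stimulates T cells, measured 12.76, 14.47 and 13.42 CPM with 10 µM ginsenoside Rc, against 18.24, 18.19 and 17.95 CPM in the control (-0.42 ± 0.11). It was called by limma voom (adjusted p = 0.017) and with only the 2 groups in the model (adjusted p = 0.0066). Lrrc17, a secreted leucine-rich repeat protein, measured 65.81, 65.41 and 68.24 CPM, against 74.2, 75.49 and 80.3 CPM in the control (-0.21 ± 0.05). Bcl3, a nuclear member of the IkappaB family, measured 5.625, 5.192 and 5.355 CPM, against 6.319, 6.867 and 7.48 CPM in the control (-0.36 ± 0.10). The others were 9430015G10Rik (-0.25 ± 0.06), the centriole protein Hyls1 (-0.28 ± 0.08), the synaptic vesicle protein Sv2b (-0.40 ± 0.12), the GPI-anchored Ly6c2 (-0.21 ± 0.07) and 2610301B20Rik (-0.19 ± 0.06).

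No gene of the wasting programme passed with 10 µM ginsenoside Rc alone. Fbxo32 (atrogin-1), a ubiquitin ligase of muscle wasting, measured 106, 99.82 and 99.95 CPM with 10 µM ginsenoside Rc, against 97.82, 95.39 and 95.59 CPM in the control. Its log2 change was 0.08 ± 0.11, with a 95% interval of -0.15 to 0.31. Trim63 (MuRF1), the ligase that targets sarcomere proteins, measured 36.84, 34.65 and 34.31 CPM, against 30.95, 32.9 and 29.44 CPM in the control (0.18 ± 0.14, 95% interval -0.12 to 0.48). Foxo1, the transcription factor upstream of both, was at 0.08 ± 0.09 (95% interval -0.11 to 0.28). For all 3 every treated library was above every control library, and each interval includes 0. Mstn, the secreted inhibitor of muscle growth, had 3, 2 and 3 counts with 10 µM ginsenoside Rc and 1, 4 and 7 counts in the control, too few to compare. Of 31 atrophy and FOXO genes, 0 passed, 19 were above 0, the median was 0.03, and 5 were higher (16.1%, against 5.67% of all genes) and 1 lower (3.23%, against 6.39%) without overlap.

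Direct targets of the glucocorticoid receptor, which dexamethasone binds, did not pass with the ginsenoside alone. Fkbp5, a co-chaperone and a sensitive target, measured 23.59, 23.14 and 23.04 CPM with 10 µM ginsenoside Rc, and 22.93, 24.86 and 23.48 CPM in the control. Its log2 change was -0.03 ± 0.05, with a 95% interval of -0.13 to 0.07, whereas 200 µM dexamethasone against the control gave 4.17 ± 0.05 (adjusted p = 4.1e-20). Tsc22d3 (GILZ) was at 0.07 ± 0.05, Per1 at -0.02 ± 0.09 and Klf9 at 0.01 ± 0.09. Of these, Tsc22d3 was separate between the groups, at 60.19, 61.98 and 61.08 CPM, against 58.34, 58.56 and 57.76 CPM in the control. Nr3c1, the receptor itself, was separate between the groups at 111, 107.6 and 107.4 CPM, against 97.79, 98.26 and 105.3 CPM in the control (0.11 ± 0.05, unadjusted p = 0.025). Of 28 targets tested, 0 passed, 14 were above 0 and the median was 0.00. Without overlap, 3 were higher (10.7%, against 5.67% of all genes) and 1 lower (3.57%, against 6.39%). The summed level of the list was 1131.4, 1131.9 and 1139.2 CPM with 10 µM ginsenoside Rc, against 1112.6, 1102.9 and 1119.2 CPM in the control.

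Growth factor and energy lists had median log2 changes between 0.01 and 0.05. Igf1, the growth factor, was at 0.07 ± 0.17 (95% interval -0.30 to 0.43), and the 33 genes of IGF, insulin and mTOR signalling had a median of 0.02, with 2 higher and 2 lower without overlap (6.06% each, near the 5.67% and 6.39% of all genes). Ppargc1a, the coactivator of mitochondrial biogenesis, was at 0.01 ± 0.12 (95% interval -0.24 to 0.26). The list of mitochondrial biogenesis and dynamics (30 tested) had a median of 0.02, with 4 higher (13.3%, against 5.67% of all genes) and 0 lower (against 6.39%) without overlap. Among these, Opa1, which fuses inner mitochondrial membranes, was at 0.10 ± 0.04, and Prkaa2, the muscle catalytic subunit of AMP-activated kinase, was at 0.12 ± 0.05. The 62 nuclear genes of oxidative phosphorylation had a median of 0.01. The 13 mitochondrially encoded genes had one of 0.03, with 0 separate between the groups. PPAR targets and fatty acid oxidation genes (31 tested) had a median of 0.04 with 23 above 0 (74.2%, against 49.4% of all genes). Of these, 3 were higher (9.68%) and 1 lower (3.23%) without overlap. Glycolysis and hypoxia genes (40 tested) had a median of 0.05 with 31 above 0 (77.5%, against 49.4% of all genes). Of these, 4 were higher (10%, against 5.67% of all genes) and 0 lower (against 6.39%) without overlap. Pgam2, the muscle phosphoglycerate mutase, measured 115, 126 and 115.4 CPM with 10 µM ginsenoside Rc, against 105.1, 114.6 and 101.4 CPM in the control (0.15 ± 0.08). No gene of these lists passed.

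Stress, lipid and inflammatory lists had no gene that passed either. The 43 genes of the ATF4 and unfolded protein response had a median of -0.03, with 5 lower (11.6%, against 6.39% of all genes) and 0 higher (against 5.67%) without overlap, among them Nupr1, a stress-induced cofactor, at 40.44, 45.48 and 45.25 CPM with 10 µM ginsenoside Rc, against 50.02, 49.22 and 52.06 CPM in the control (-0.20 ± 0.08). The 34 antioxidant and NRF2 targets had a median of -0.00, with Hmox1 at 0.00 ± 0.07 and Nqo1 at -0.16 ± 0.12. The 27 sterol synthesis genes had a median of 0.00, with Insig1 at 0.15 ± 0.21 and Hmgcs1 at 0.02 ± 0.15. The 18 fatty acid synthesis genes had a median of -0.01, with 3 higher (16.7%) and 0 lower without overlap. The 13 genes of the liver X receptor and sterol efflux list had a median of 0.03, with 11 above 0. Of these, 2 were higher (15.4%) and 0 lower without overlap. The 23 p53 targets had a median of -0.01, with 5 higher (21.7%) and 1 lower (4.35%) without overlap. The 28 interferon response genes had a median of -0.07, with 4 lower (14.3%) and 1 higher (3.57%) without overlap. The 33 inflammatory and NF-kB genes had one of -0.02, with 4 lower (12.1%) and 2 higher (6.06%). The 17 genes of the aryl hydrocarbon receptor list had one of -0.02, with 3 lower (17.6%) and 0 higher. Cyp1b1, a classical target of that receptor in many cells, was at 0.01 ± 0.05. Of all genes, 6.39% were lower and 5.67% higher without overlap. The 13 estrogen and androgen receptor targets had a median of 0.02, with 0 higher (against 5.67% of all genes) and 3 lower (23.1%, against 6.39%) without overlap.

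The higher dose was compared directly with 10 µM. For 20 µM against 10 µM ginsenoside Rc edgeR called 0 genes (0%), with 1385 (8.97%) at an unadjusted p below 0.05, DESeq2 called 9 and limma voom 1. Without replicate 2 of the 20 µM group, the library that stood apart, 1 gene was called and 684 had an unadjusted p below 0.05, and without replicate 1 of that group 1 gene was called. Both doses are set against the same control libraries, so their values are given side by side. Myh8 measured 716.9, 729.2 and 773.8 CPM at 20 µM, and its log2 change against the control was 0.40 ± 0.05 at 10 µM and 0.51 ± 0.05 at 20 µM. The direct difference of 20 µM minus 10 µM was 0.11, with a 95% interval of -0.00 to 0.22. Col23a1 measured 10.78, 12.59 and 10.7 CPM at 20 µM and was at -0.46 ± 0.08 at 10 µM and -0.70 ± 0.08 at 20 µM, with a direct difference of -0.24 (interval -0.41 to -0.08, unadjusted p = 0.0066, adjusted p = 0.55). Edn1 measured 1.61, 1.892 and 1.344 CPM at 20 µM, with a direct difference of -0.56 (interval -0.84 to -0.27, adjusted p = 0.55). Atp2a1 was at 0.17 ± 0.05 and 0.18 ± 0.05, with a 95% interval of -0.09 to 0.11 for the direct difference. At 20 µM against the control 16 genes passed in all (0.104%). Among them were Myh8 and Fbln7, which were higher, and Col23a1, Edn1, Axin2, Lrrc17, Ly6c2 and Sv2b, which were lower. Fbln7 was at 0.66 ± 0.11 (adjusted p = 0.027).

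The same dose was also given before dexamethasone. The labels give 12 h of pre-treatment and do not state whether the ginsenoside stayed on during the 24 h of dexamethasone, so the length of exposure may differ from the 36 h without it. The 10 µM pre-treated and dexamethasone-only libraries are separate from the 6 libraries above, so directions can be counted across them. Of the 392 genes with an unadjusted p below 0.05 without dexamethasone, 248 (63.3%) had the same direction with dexamethasone, as had 55.6% of all genes tested. Of the 12 named higher genes 9 did so, and of the 12 named lower genes 7. Col23a1 measured 4.314, 4.095 and 4.639 CPM after 10 µM pre-treatment and dexamethasone, against 6.021, 7.021 and 5.974 CPM with dexamethasone alone, and it fell by 0.54 on the log2 scale (SE 0.09, adjusted p = 0.043), 1 of 4 genes that passed (0.0259%). Axin2 measured 13.79, 14.07 and 14.05 CPM, against 19.71, 16.9 and 17.63 CPM with dexamethasone alone (-0.37 ± 0.09, adjusted p = 0.49). Atp2a1 measured 3343, 3396 and 3350 CPM, against 2869, 3108 and 3008 CPM with dexamethasone alone (0.17 ± 0.05, adjusted p = 0.71). In these 3 genes the groups were separate and the log2 changes were -0.54, -0.37 and 0.17 with dexamethasone and -0.46, -0.37 and 0.17 without it.

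**Figure D5:**
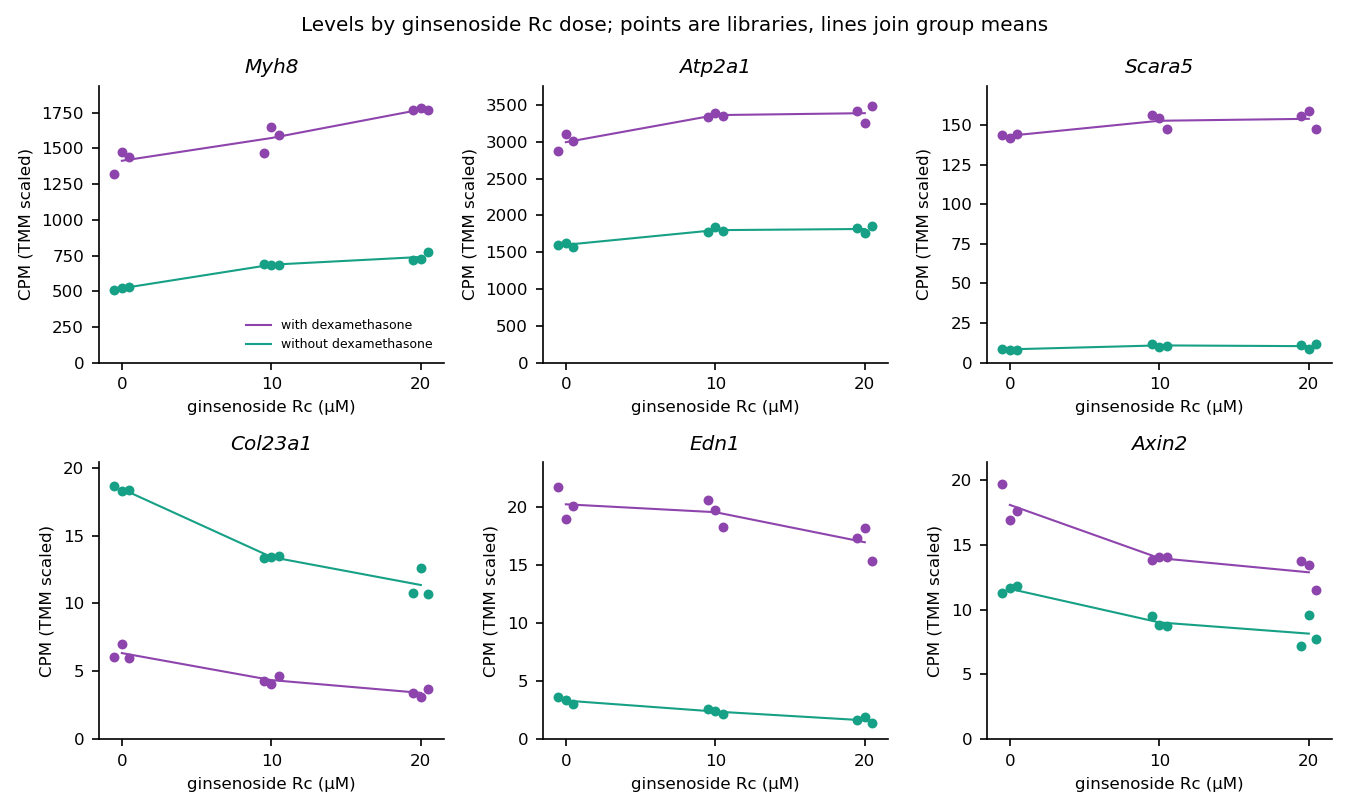
Level in CPM of 6 named genes by dose of ginsenoside Rc (0, 10 and 20 µM), with dexamethasone (purple) and without it (green); points are libraries, lines join the group means, and every axis starts at 0. The points at 0 µM without dexamethasone are the controls and those at 10 µM without dexamethasone are the treated libraries described above; Col23a1 and Axin2 are lower at 10 µM than at 0 µM on both lines, without overlap.

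The difference between the 2 settings, in which the length of exposure to the ginsenoside may differ too, was tested for every gene. For the log2 change of 10 µM ginsenoside Rc with dexamethasone minus that without it, edgeR called 0 of 15436 genes (0%), with 327 (2.12%) at an unadjusted p below 0.05, and DESeq2 and limma voom called 0 as well. Myh8 measured 1471, 1654 and 1595 CPM after 10 µM pre-treatment and dexamethasone, against 1324, 1475 and 1443 CPM with dexamethasone alone. These groups overlapped, with a log2 change of 0.15 ± 0.05, and the difference from the change without dexamethasone was -0.24 ± 0.07 (unadjusted p = 0.0045, adjusted p = 1). Under dexamethasone alone, against the control, Myh8 rose by 1.44 ± 0.05 on the log2 scale, as 1 of 6755 genes that passed (43.8%). Dact1 measured 6.026, 6.385 and 6.832 CPM, against 5.441, 6.101 and 6.197 CPM with dexamethasone alone (0.12 ± 0.09), and the difference was 0.53 ± 0.13 (unadjusted p = 0.00073, adjusted p = 1). Edn1 measured 20.64, 19.74 and 18.3 CPM, against 21.69, 18.95 and 20.08 CPM with dexamethasone alone (-0.05 ± 0.09), with a difference of 0.44 ± 0.15 (adjusted p = 1). Myh8, Dact1 and Edn1 were named for their change without dexamethasone, which this difference subtracts. The choice itself therefore favours a difference, and their unadjusted p-values do not allow for it. Fbxo32 was at 0.13 ± 0.11 and Trim63 at 0.16 ± 0.13 after 10 µM pre-treatment and dexamethasone over dexamethasone alone, and neither passed.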

How the data were processed

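Per the labels' protocols, poly-A RNA went into directional libraries read as 100 bp pairs. The submitters' processing notes list RSEM 1.3.3, STAR 2.7.3a, Trim Galore 0.6.5 and FastQC 0.11.9, and GRCm38 (mm10). No source used here gives the annotation, filters or strand setting, so reads of overlapping and antisense genes may be mixed. RSEM expected counts of 48795 gene IDs were deposited; 9.27% of values were not whole, since RSEM divides reads among near-identical genes by estimation. GENCODE vM21 named 48349 IDs; the other 446 held 0.0385% of counts.

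Expected counts were rounded, filtered with filterByExpr (15436 of 27028 genes with any count kept), scaled by TMM and fitted with edgeR 4.0.16 (R 4.3.3): a robust quasi-likelihood model with 1 mean per group over all 18 libraries and Benjamini-Hochberg adjustment at 0.05. Each SE comes from the log2 change and the F statistic; intervals are 95%. Promoters (250 bases) came from RefSeq GRCm38.p6 and shared 100-base stretches from GENCODE transcripts. Myosin levels per kilobase used transcript length. No 2 libraries of a group differed by as little as sampling noise (chi-square per degree of freedom 4.93 to 82.87).

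The naming rule took every gene that passed, the 12 higher and 12 lower genes with the smallest p (pseudogenes and overlapping groups left out), 1 or 2 members of each list and 16 fixed genes; other genes were chosen after their values were seen. Of the 12 higher genes, 1 is not reported here. The members and the 38 lists were chosen with earlier results of these data known, so the lists are no independent support. Alternatives were median-ratio factors, no scaling, no filter, DESeq2 1.42.0, limma 3.58.1 voom, only the groups compared, a replicate block, a test against 1.2-fold, and leaving out libraries.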

Additional observations from a re-analysis of the deposited data

How the results depend on the processing

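For 10 µM ginsenoside Rc against the control, 1 gene passed in the main test and also with median-ratio factors, with no composition scaling and with a replicate block. The count was 2 with no filter on low counts (1 higher, 1 lower), 3 without replicate 2 of the 20 µM group (2 higher, 1 lower), 8 with only the 2 groups in the model (2 higher, 6 lower), 6 with limma voom (1 higher, 5 lower), 5 with DESeq2 (3 higher, 2 lower) and 0 in the test against a 1.2-fold change. Leaving out each of the 6 libraries gave 0 to 0 genes. Myh8 kept a log2 change of 0.38 to 0.41 throughout. The labels do not state whether the replicate numbers pair the samples, and pairing was not tested. Same-numbered treated and control libraries deviated together by r = 0.038, 0.15 and 0.062. Differently numbered ones ranged from r = -0.125 to 0.054, and not every library correlated best with its own number. A replicate block with only the 2 groups, a setting chosen after seeing the data, called 75 genes (30 higher, 45 lower). The same setting with the 4 groups that the difference with and without dexamethasone needs called 2 genes, against 0 in the main test. For 20 µM against 10 µM the count of 0 became 1 with no filter, 1 without replicate 2 of the 20 µM group, 1 with limma voom and 9 with DESeq2, and it ranged from 0 to 1 when leaving out each library. Among 105 named genes, 78 kept direction and side of the threshold in all 16 settings and 22 passed in some other setting. Directions turned round for 4 genes close to 0 or with few counts. Mstn came to 0.0258 with limma voom and ranged from -0.895 to 0.185 when leaving out each library. Over the same omissions Myog ranged from -0.0346 to 0.0655, Ppargc1a from -0.0405 to 0.0579 and Fkbp5 from -0.0566 to 0.00255. The cause was not tested. Median-ratio factors and no scaling moved the median of all genes by under 0.01. List medians of the difference in mean log2 CPM that changed sign with them were those of myogenic regulators, sterol synthesis and autophagy, all near 0.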

Other observations

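Some genes had uneven counts, or shared most of their sequence with other genes. Gm14440 had 0, 0 and 0 expected counts with 10 µM ginsenoside Rc, against 0, 242.76 and 280.73 in the control. All of its distinct 100-base stretches are shared with Gm14288, Gm14435 and Zfp968, edgeR gave it an adjusted p of 1, and DESeq2 called it at an adjusted p of 0.0003. Rpl7a-ps11, a processed pseudogene, had 0, 0 and 0 counts with 10 µM ginsenoside Rc, against 194.3, 0 and 189.26 in the control. Gm26722, a lincRNA, had 0, 0 and 0 counts, against 13.24, 32.29 and 23.21 in the control, and it was called when only the 2 groups entered the model (adjusted p = 0.0016). Zxda, annotated as a pseudogene, had 62.96, 75.86 and 107.18 counts, against 164.9, 136.6 and 133.68 in the control, and 96.1% of its distinct stretches are shared with Zxdb.

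The 6 genes of the neuron list summed to 70.5 to 76.7 CPM with 10 µM ginsenoside Rc and 79 to 83.3 CPM in the control, without overlap. Rbfox3 was at 0, and Snap25, Syt1 and Gfap, the last a glial gene, were under 1 CPM. The sum therefore rests on Tubb3 and Stmn2, at log2 changes of -0.09 and -0.14, of which 1 was lower without overlap. Osteoblast and chondrocyte markers overlapped, at 84.4 to 89.1 CPM with 10 µM ginsenoside Rc and 88.1 to 94.1 CPM in the control. Neither set was tested as a whole.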
